A study of Gorilla gorilla gorilla with 13 samples.

Results

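Genes of the BMP and TGF-beta signalling pathway were read across 4 sorted cell populations of gorilla cerebral organoids. The members are the hg38 table's genes named as BMP, GDF, inhibin/activin beta or TGF-beta ligands, BMP, activin or TGF-beta receptors, SMADs or ID proteins, plus the inhibitors NOG, CHRD, FST and GREM1. They number 54 of the 18137 genes of that table, and 53 of them passed the filter on low counts. The other member, GDF1, held 0 counts in all 13 libraries, here and in a second count table named for gorGor6. Counting error alone allows at most 0.270 to 0.542 CPM (each library's counts scaled to a common total by edgeR) per library. The annotation and strand setting were not given, so a 0 that comes from them cannot be told apart from absent expression. By role they are 18 BMP and GDF ligands, 7 TGF-beta and activin ligands, 7 type I receptors, 4 type II receptors, the co-receptor TGFBR3, 8 SMADs, 4 extracellular inhibitors, 4 ID proteins and the protease BMP1, which cleaves procollagen and the inhibitor chordin.

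Ligands of this family bind type I and type II receptor kinases on the cell surface, which phosphorylate SMAD proteins. BMP receptors act on SMAD1, SMAD5 and SMAD9, and TGF-beta and activin receptors on SMAD2 and SMAD3. All of these enter the nucleus with SMAD4, while SMAD6 and SMAD7 block the signal. The ID genes are classic BMP targets whose products hold back basic helix-loop-helix factors, and in the dorsal forebrain BMPs are known for inducing the cortical hem and choroid plexus.

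The organoids, 3-dimensional cultures of brain-like tissue, came from the single gorilla pluripotent stem cell line GC1 and were grown to week 8. Their cells were separated by flow cytometry into BCL11B+ neurons (N, n = 2), basal intermediate progenitors (bIP, n = 3), basal radial glia (bRG, n = 4) and apical radial glia (aRG, n = 4). The labels give no group a treatment, and all share the line, so no clone or donor other than GC1 is represented. The labels do not say that replicate libraries derive from separate cultures, so p-values reflect library-to-library spread that could be technical.

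Each library was an oligo-dT-primed, PCR-amplified Smart-seq2 preparation with 5464721 to 12524938 counts in the hg38 table. Of 6 radial glia markers, all 6 were lower in bIP and in N than in aRG, and all 6 neuron markers were higher (edgeR adjusted p under 0.05). The label bIP went against its markers: EOMES, which defines these progenitors, measured 85.3 ± 49.1 CPM in bIP and 367 ± 92.9 in bRG, and Cajal-Retzius neuron markers summed to 1329 to 3523 CPM in bIP against 51.8 to 119 in bRG. The part of Cajal-Retzius markers in the differences of bIP was not tested. The outer radial glia marker HOPX averaged 65.7 ± 29.1 CPM in bRG, against 149.9 ± 67.4 CPM in aRG (edgeR adjusted p = 0.196). Of 6 basal radial glia markers 0 were called in bRG against aRG, and 2 were lower and 0 higher at an unadjusted edgeR p under 0.05. These markers thus did not bear out the label bRG. EOMES averaged 143 ± 84.4 CPM in aRG, below bRG. The 6 basal intermediate progenitor markers summed to 455 to 601 CPM in bRG and 159 to 353 in aRG, with 0 of them called. Summed choroid plexus markers, mostly TTR, lay at 233 to 1265 CPM in bRG and 1619 to 7821 in aRG. Summed cycling-cell markers lay at 584 to 845 and 2332 to 4607 in the same order. The cycling-cell sum was 49.9 to 71.4 CPM in bIP and 48.6 to 50.0 in N. All 6 cycling-cell markers were called lower in bIP than in bRG. bRG library 3 stood apart from the other 12 libraries on the second principal component (67.7, against -18.3 to 6.58), so calls of members described here that begin or end without it are also given that way. In bulk RNA, fewer cells of a type and less RNA per cell cannot be told apart.

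Most calls separated N and bIP from the radial glia populations, and members went in both directions. A gene is called where its edgeR quasi-likelihood p, adjusted over all tested genes, is under 0.05, values after ± are SDs over a population's libraries, and log2FC is the log2 fold change of the first population over the second. Over the 4 populations 15 of the 53 tested members were called (28.3%), beside 22.5% of all 16804 tested genes. In N against aRG 10 members were lower and 4 higher (18.9% and 7.55%), beside 9.37% and 10.4% of all genes. In bIP against aRG 6 were lower and 2 higher (11.3% and 3.77%), beside 9.98% and 8.47%, and in bIP against bRG 6 were lower and 3 higher (11.3% and 5.66%), beside 8.44% and 8.25%. The median log2 fold change of the 53 members was -0.82 in N against aRG and -0.36 in bIP against aRG, beside -0.053 and -0.035 for all genes. Apart from the share lower in N against aRG, these shares are near or under those of all genes, and the count lower in N against aRG was 4 without N library 1. Without N library 1, without the unnumbered N library or without aRG library 4 the count higher was 2. In bIP against aRG the count higher was 1 without bIP library 1, bIP library 2, aRG library 2 or aRG library 3, and 5 without bRG library 3. Comparisons against aRG share the aRG libraries and are not independent of each other.

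Few members were called between the radial glia populations or between N and bIP, and both shares were near those of all genes. In bRG against aRG the single called member was ID1, lower in bRG (1.89% of 53), beside 1.23% of all genes lower and 0.0298% higher. By edgeR 0 members were called higher there, 2 were higher and 3 lower at an unadjusted p under 0.05, and DESeq2 called 0 higher and 1 lower. In N against bIP edgeR called 0 members, beside 0.113% of all genes lower and 0% higher, while 2 were higher and 7 lower at an unadjusted p under 0.05. DESeq2 called 4 lower in N there, namely ID1, ID4, FST and TGFBR3, and 0 higher. edgeR called 1 lower without bIP library 3 or without bRG library 3, in both cases ID4.

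For 6 members all N and bIP libraries lay below all bRG and aRG libraries (11.3% of 53), beside 7.39% of all genes. These were BMPR1A, BMPR1B, TGFBR2, SMAD3, INHBB and ID4. For 3 members, ID2, INHBA and TGFB3, they lay above (5.66%), beside 8.68% of all genes. The receptor genes of this set serve both branches, BMPR1A and BMPR1B that of BMPs and TGFBR2 that of TGF-beta.

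**Figure D1:**
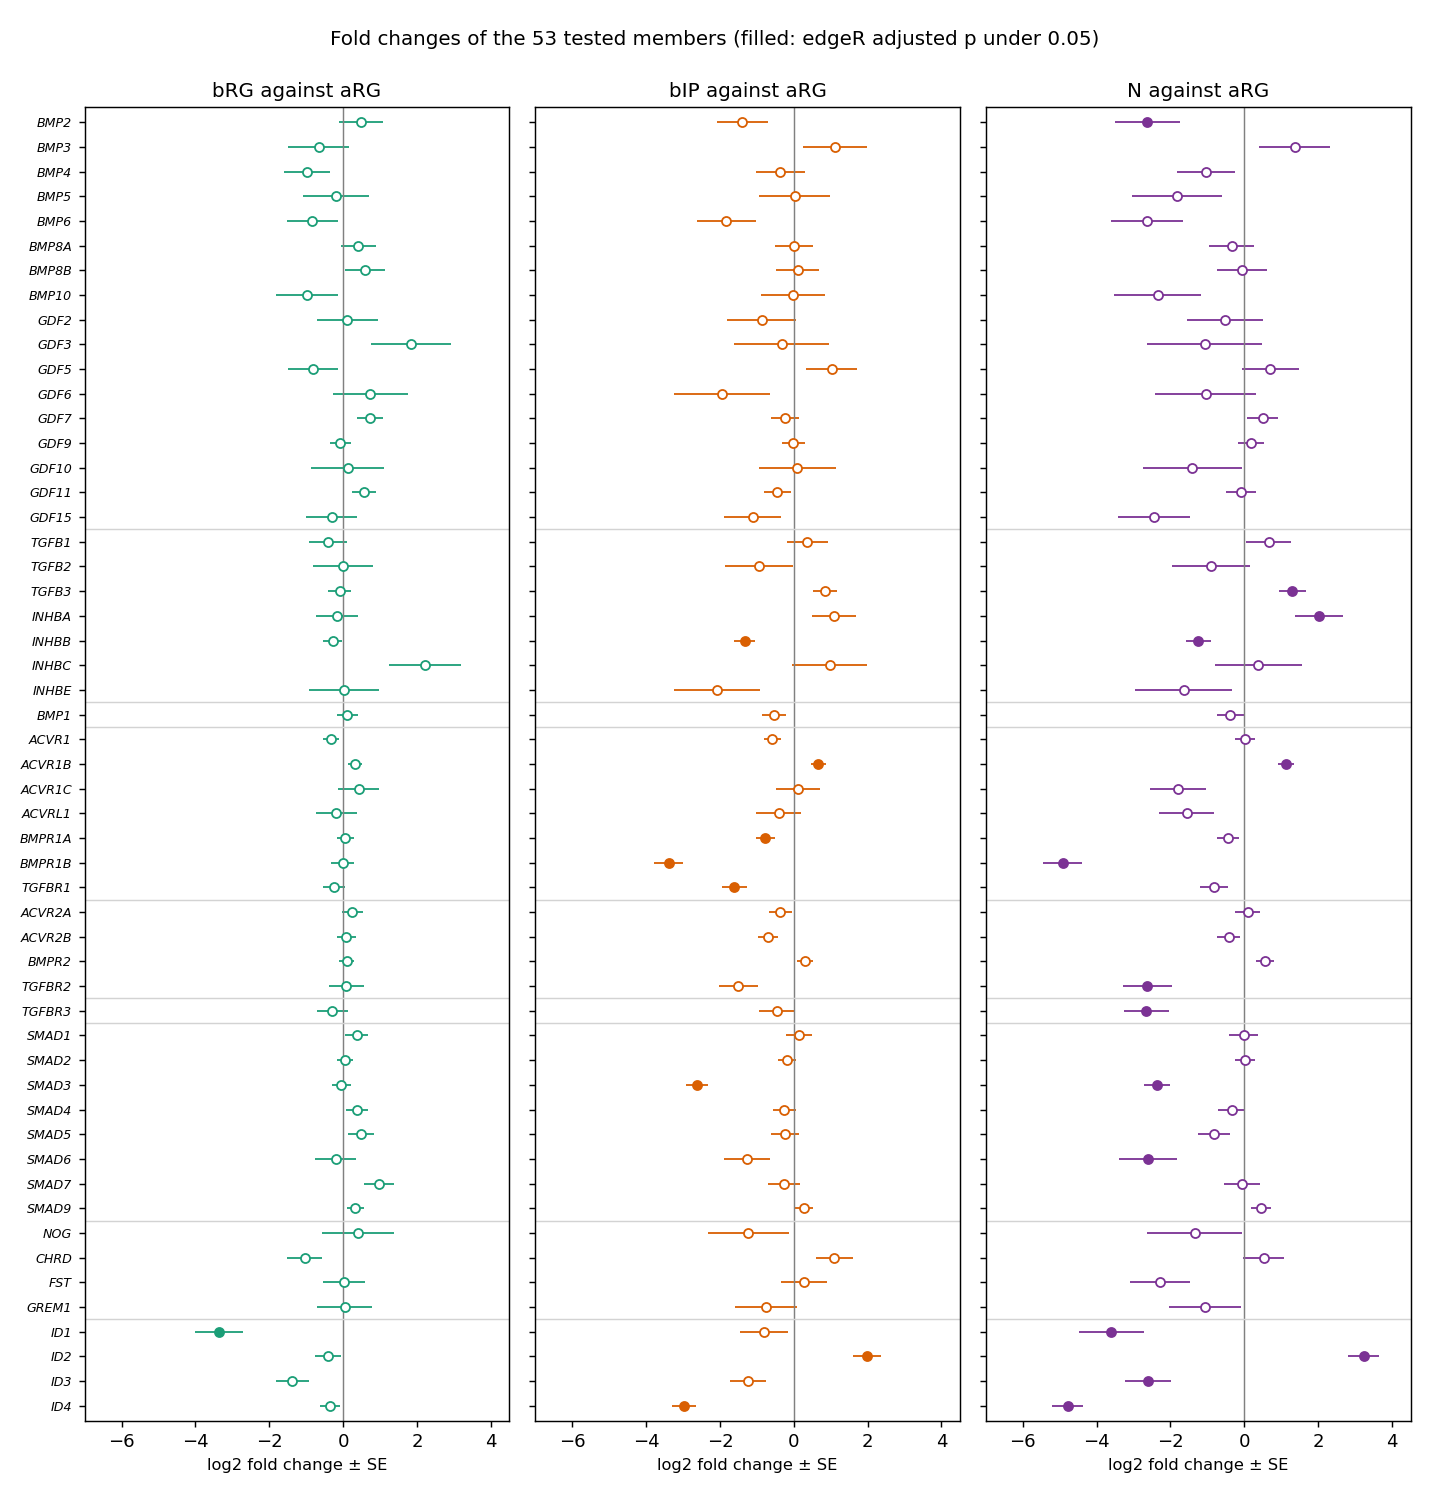
Log2 fold change (x axis, horizontal bars are 1 SE) of the 53 tested members (rows, grouped by role) in bRG, bIP and N, each against aRG. Filled points have an edgeR adjusted p under 0.05; bRG has 1 filled point, ID1 at -3.37, bIP has 8 and N has 14, the lowest of them BMPR1B at -4.92 and the highest ID2 at 3.23.

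Among the 17 tested BMP and GDF ligands BMP2 alone was called over the 4 populations. BMP2, a ligand that patterns the dorsal midline, measured 0.123 and 1.59 CPM in N, 0.747, 2.65 and 2.79 in bIP, 8.72, 5.45, 10.6 and 6.09 in bRG, and 1.81, 6.28, 8.14 and 5.67 in aRG. Both N libraries were below all aRG libraries, and the lower of them, N library 1, rested on 1 count. The log2 fold change in N against aRG was -2.62 (SE 0.88, edgeR adjusted p = 0.0430), and it was -1.88 (SE 0.70, edgeR adjusted p = 0.0800) in bIP against bRG, which DESeq2 called (0.0161). The N call is the weakest of the 14, and among removals it ended without N library 1 (-1.78, adjusted p = 0.295), aRG library 2 (0.0716), aRG library 3 (0.0936), aRG library 4 (0.0670) and 4 libraries of bIP and bRG (0.0519 to 0.0553). In the gorGor6 table the call also ended (adjusted p = 0.118), as it did with the replicate block, which left N with 1 library (log2 fold change -4.56).

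BMP4, another ligand known from the hem, measured 1.96 and 2.52 CPM in N, 5.37, 1.38 and 3.96 in bIP, 3.25, 3.11, 2.71 and 0.381 in bRG, and 5.96, 4.28, 4.79 and 3.40 in aRG. All N and bRG libraries lay below all aRG libraries, while bIP libraries 1 and 3 were within the aRG range. No comparison was called: the log2 fold change was -1.03 in N against aRG (95% interval -2.56 to 0.50) and -0.97 in bRG against aRG (-2.18 to 0.25).

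GDF11, a ligand that limits neuron production in the mouse olfactory epithelium, measured 105 and 89.1 CPM in N, 82.0, 91.8 and 55.3 in bIP, 166, 131, 234 and 81.7 in bRG, and 163, 115, 67.7 and 68.4 in aRG. Its bRG libraries ran from 81.7 to 234 CPM and its aRG libraries from 67.7 to 163, so these 2 groups overlapped. In bIP against bRG it gave log2FC -1.01 (SE 0.36, edgeR adjusted p = 0.0650). The difference was called without bRG library 4 (adjusted p = 0.0257), without aRG library 1 (0.0485), by DESeq2 (0.0347), with the replicate block (0.0136) and with the term for libraries 1-2 against 3-4 (0.0226).

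GDF7, expressed by roof plate cells, measured 10.8 and 8.49 CPM in N, 3.88, 6.79 and 6.65 in bIP, 9.57, 11.1, 12.4 and 12.0 in bRG, and 7.59, 6.99, 7.37 and 5.36 in aRG. Its 4 bRG libraries lay above all aRG libraries, yet bRG against aRG, at log2FC 0.72 (SE 0.35, edgeR adjusted p = 0.544), was not called. They also lay above all bIP libraries, and bIP against bRG was called by DESeq2 (log2FC -0.96, adjusted p = 0.0252) but not by edgeR. BMP6, a ligand best known for iron regulation in the liver, measured 0.735 and 0.653 CPM in N, 2.69, 0.106 and 0.989 in bIP, 1.54, 1.78, 3.77 and 2.66 in bRG, and 6.50, 2.71, 2.68 and 5.67 in aRG. Both N libraries were below all aRG libraries, bIP library 1 was within the aRG range, and N against aRG gave log2FC -2.63 (SE 0.98, edgeR adjusted p = 0.0698). It was called without bRG library 3 (adjusted p = 0.0415), without bIP library 2 (0.0366) and by DESeq2 (0.0127). GDF15, a stress-induced ligand, gave log2FC -2.44 (SE 0.98, edgeR adjusted p = 0.0932) in N against aRG, and was called without bRG library 3 (0.0169) and by DESeq2 (0.0219).

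None of the remaining 11 tested ligands of this class was called by edgeR in any comparison. BMP8A measured 41.7 ± 29.1 CPM in N, 53.2 ± 31.3 in bIP, 70.5 ± 24.7 in bRG and 53.2 ± 37.6 in aRG. It and BMP8B are near-identical copies, so reads can be split between them and both are uncertain. BMP8B ranged from 2.99 to 3.06 CPM in N, 2.97 to 3.96 in bIP, 2.91 to 6.45 in bRG and 1.03 to 5.57 in aRG. BMP3 ranged from 3.31 to 14.8 CPM in N and 1.24 to 4.79 in aRG, and GDF9 from 23.4 to 36.2 and 16.4 to 35.0. BMP10, GDF2, GDF3, GDF6 and GDF10 held 47 to 82 counts in all 13 libraries together, and no difference in them was detectable at this depth. BMP5 held 134 counts. GDF5, a ligand of joints, held 237 counts here but 0 in the gorGor6 table, and its values are uncertain for that reason. DESeq2 called GDF5 higher in bIP than in bRG (log2FC 1.84, adjusted p = 0.0409). The protease BMP1 measured 41.5 ± 2.34 CPM in N, 37.3 ± 18.2 in bIP, 58.5 ± 17.2 in bRG and 54.0 ± 4.77 in aRG and was not called with all libraries. Without bIP library 2 edgeR called BMP1 lower in bIP than in bRG (log2FC -1.12, adjusted p = 0.0340).

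Among the TGF-beta and activin ligands 3 of 7 were called over the 4 populations. INHBB, the beta B subunit of activin and inhibin, measured 12.4 and 14.2 CPM in N, 14.2, 12.8 and 10.7 in bIP, 19.0, 29.9, 28.8 and 26.4 in bRG, and 26.9, 33.8, 34.9 and 30.7 in aRG. All 5 N and bIP libraries were below all 8 radial glia libraries. The log2 fold change was -1.25 (SE 0.34, edgeR adjusted p = 0.0132) in N against aRG and -1.33 (SE 0.29, edgeR adjusted p = 0.00308) in bIP against aRG. It was also lower in bIP than in bRG, at log2FC -1.05 (SE 0.29, edgeR adjusted p = 0.0173). That last call ended without bIP library 2 (adjusted p = 0.0602) or 3 (0.0843) and in the gorGor6 table (0.0619). The N call ended in the fits that left N with 1 library. These were without N library 1 (log2FC -1.15), without the unnumbered one (-1.35), with the replicate block (-1.19) and with the term for libraries 1-2 against 3-4 (-1.33).

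INHBA, the beta A subunit of activin, ran the other way, at 17.6 and 21.6 CPM in N, 9.26, 12.7 and 8.54 in bIP, 5.47, 6.56, 0.354 and 4.66 in bRG, and 4.70, 7.56, 4.21 and 2.78 in aRG. Both N libraries were the highest of the 13, all bIP libraries exceeded all radial glia libraries, and bRG library 3 was lowest. The N to aRG log2 fold change was 2.03 (SE 0.65, edgeR adjusted p = 0.0343), and bIP against aRG 1.08 (SE 0.60, edgeR adjusted p = 0.259). The N call ended without aRG library 1 (adjusted p = 0.0673), 3 (0.0793) or 4 (0.105), and in the gorGor6 table (0.0694). It also ended in the fits that left N with 1 library. These were without N library 1 (log2FC 2.17), without the unnumbered one (1.88), with the replicate block (1.75) and with the term for libraries 1-2 against 3-4 (1.51). Without bRG library 3 the bIP difference was called (adjusted p = 0.0398).

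TGFB3, a TGF-beta isoform made by neurons and glia, measured 121 and 101 CPM in N, 76.3, 88.0 and 77.1 in bIP, 69.7, 47.5, 18.0 and 33.4 in bRG, and 50.2, 51.0, 36.8 and 42.2 in aRG. Its levels were ordered N, bIP and radial glia without overlap between these 3. N differed from aRG by log2FC 1.30 (SE 0.36, edgeR adjusted p = 0.0158), bIP against aRG 0.84 (SE 0.33, edgeR adjusted p = 0.0919) and bIP against bRG 0.94 (SE 0.33, edgeR adjusted p = 0.0617). The N call ended without aRG library 4 (adjusted p = 0.0506). It also ended in the fits that left N with 1 library. These were without N library 1 (log2FC 1.17), without the unnumbered one (1.43), with the replicate block (1.08) and with the term for libraries 1-2 against 3-4 (1.14). Without bRG library 3, bIP against aRG was called at 0.0150. The bIP difference from bRG was called without bRG library 1 (adjusted p = 0.00973), by DESeq2 (0.0444) and in the gorGor6 table (0.0449). It was also called with the replicate block (0.0285) and the term for libraries 1-2 against 3-4 (0.0237).

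TGFB1 and TGFB2, the other isoforms, were not called anywhere. TGFB1 measured 11.2 and 7.65 CPM in N, 6.87, 8.91 and 7.19 in bIP, 5.30, 7.12, 1.18 and 4.28 in bRG, and 3.07, 6.71, 9.96 and 3.81 in aRG. TGFB2 measured 1.59 and 2.61 CPM in N, 1.94, 0.424 and 3.78 in bIP, 4.10, 8.90, 0.118 and 2.57 in bRG, and 1.26, 6.57, 4.88 and 2.99 in aRG. bRG library 3 was the lowest of all libraries for each, and the aRG range overlapped those of N, bIP and bRG in both genes. INHBC, a liver-enriched subunit, stood at 0, 2.11, 13.2 and 3.24 CPM in bRG and 1.99, 0.285, 0.862 and 0.928 in aRG, and the high value was again that of bRG library 3. INHBE held 80 counts in all.

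**Figure D2:**
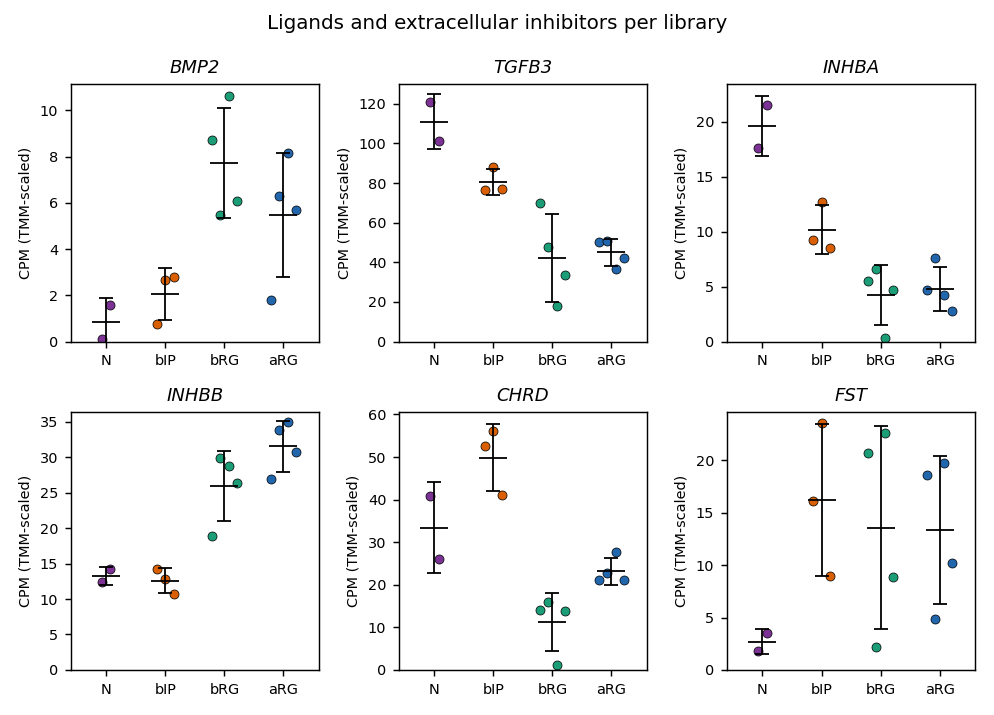
CPM (y axis, TMM-scaled, from 0) of 4 ligands and 2 inhibitors in each library (points) of N, bIP, bRG and aRG (x axis), with mean and SD (horizontal mark and bar). INHBB is lower and TGFB3 and INHBA are higher in N and bIP than in any radial glia library, while CHRD is lowest in bRG.

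Receptors held the steepest fall of any member. BMPR1B, a type I BMP receptor, measured 2.45 and 1.40 CPM in N, 8.06, 3.07 and 5.57 in bIP, 37.8, 45.3, 88.8 and 57.2 in bRG, and 63.6, 61.7, 45.6 and 60.9 in aRG. The 5 N and bIP libraries were all far below the 8 radial glia libraries. The log2 fold change was -4.92 (SE 0.53, edgeR adjusted p = 2.97e-06) in N against aRG, -3.39 (SE 0.40, edgeR adjusted p = 7.47e-06) in bIP against aRG and -3.37 (SE 0.40, edgeR adjusted p = 1.31e-05) in bIP against bRG. Between bRG and aRG it was log2FC -0.016, with a 95% interval of -0.64 to 0.60. Both N libraries were below all 3 bIP libraries, but that difference was not called (log2 fold change -1.53, edgeR adjusted p = 0.431).

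BMPR1A, another type I BMP receptor, measured 45.8 and 47.8 CPM in N, 39.6, 47.2 and 25.7 in bIP, 62.4, 53.7, 79.9 and 69.7 in bRG, and 75.5, 56.9, 59.8 and 62.9 in aRG. All N and bIP libraries lay below all radial glia libraries, by smaller margins than for BMPR1B. It gave log2FC -0.77 (SE 0.26, edgeR adjusted p = 0.0470) in bIP against aRG and -0.83 (SE 0.26, edgeR adjusted p = 0.0355) in bIP against bRG. Both calls are close to the threshold: of 20 alternatives 13 ended the first and 7 the second. Among these, leaving out bIP library 3 gave -0.55 and -0.61 (adjusted p = 0.227 and 0.179). Every single removal of an aRG, N or bRG library other than bRG library 2 or 3 ended the first call too (0.0570 to 0.113), as did that of bIP library 1 (0.109). The second ended without bIP library 1 (0.0894) and without bRG library 1, 3 or 4 (0.0502 to 0.0687). N against aRG gave log2FC -0.45 (SE 0.29, edgeR adjusted p = 0.331), which was not called. BMPR1A also has processed copies in the genome, listed in the gorGor6 table, that could share its reads.

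BMPR2, the type II partner of both BMP receptors, was not called in any comparison. It measured 286 and 353 CPM in N, 252, 264 and 279 in bIP, 199, 192, 285 and 241 in bRG, and 223, 199, 182 and 255 in aRG. N and aRG did not overlap, and the log2 fold change between them was 0.57 (SE 0.24, edgeR adjusted p = 0.112), called at 0.0472 without bRG library 3.

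TGFBR1, the type I TGF-beta receptor, measured 63.4 and 97.0 CPM in N, 44.5, 31.6 and 63.2 in bIP, 112, 74.0, 154 and 139 in bRG, and 137, 105, 112 and 211 in aRG. The 3 bIP libraries were below all radial glia libraries. bIP against aRG gave log2FC -1.61 (SE 0.33, edgeR adjusted p = 0.00185) and bIP against bRG -1.36 (SE 0.33, edgeR adjusted p = 0.00717), of which the second ended without bIP library 2 (adjusted p = 0.0546). Both N libraries exceeded all 3 bIP libraries, and neither N against bIP, at log2FC 0.79 (SE 0.37, edgeR adjusted p = 0.753), nor N against aRG, at -0.82 (SE 0.37, edgeR adjusted p = 0.143), was called.

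TGFBR2, the type II TGF-beta receptor, measured 0.980 and 4.48 CPM in N, 3.88, 6.89 and 7.37 in bIP, 16.4, 12.7, 19.9 and 23.7 in bRG, and 15.0, 7.42, 32.6 and 13.5 in aRG. Both N libraries and all bIP libraries lay below all radial glia libraries. Against aRG, N stood at log2FC -2.63 (SE 0.67, edgeR adjusted p = 0.00890), and the call ended without N library 1 (-1.93, adjusted p = 0.132). In bIP the difference stood just outside the threshold, at log2FC -1.50 (SE 0.53, edgeR adjusted p = 0.0605) against aRG and -1.58 (SE 0.54, edgeR adjusted p = 0.0516) against bRG. It was called in 7 and in 10 of 20 alternatives, among them DESeq2 (adjusted p = 0.0170 and 0.0102) and, against aRG, the removal of bRG library 3 (0.0436).

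TGFBR3, a co-receptor also called betaglycan, measured 0.980 and 2.43 CPM in N, 9.11, 8.27 and 6.38 in bIP, 10.3, 12.8, 3.89 and 8.66 in bRG, and 14.5, 7.56, 9.29 and 12.3 in aRG. N stood below every other library, while bIP, bRG and aRG overlapped. The N to aRG log2 fold change was -2.65 (SE 0.62, edgeR adjusted p = 0.00446), which ended without N library 1 (adjusted p = 0.0907), and N against bIP gave -2.19 (SE 0.62, edgeR adjusted p = 0.337).

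ACVR1B, a type I activin receptor, was the single receptor called higher in N or bIP than in aRG. It measured 190.5 and 182 CPM in N, 139, 141 and 124 in bIP, 108, 92.1, 128 and 98.8 in bRG, and 97.0, 77.8, 79.5 and 86.2 in aRG. N exceeded bIP, and both exceeded aRG, with no overlap among these 3 populations. N against aRG gave log2FC 1.13 (SE 0.22, edgeR adjusted p = 0.00117) and bIP against aRG 0.66 (SE 0.20, edgeR adjusted p = 0.0276). The bIP call ended without bIP library 1 (adjusted p = 0.0969) or 2 (0.102), without aRG library 2 (0.0746) or 3 (0.0703) and in the gorGor6 table (0.113).

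The type II activin receptors and the remaining type I receptors were not called with all libraries. ACVR2A measured 86.5 ± 27.3 CPM in N, 63.1 ± 8.36 in bIP, 96.2 ± 30.5 in bRG and 81.0 ± 20.9 in aRG. Without bRG library 2 edgeR called ACVR2A lower in bIP than in bRG (log2FC -0.81, adjusted p = 0.0459). ACVR2B, its close relative, measured 93.7 ± 11.7, 77.5 ± 23.4, 134 ± 41.6 and 126 ± 20.6 CPM in the same order of populations, and bIP against bRG gave log2FC -0.79 (SE 0.27, edgeR adjusted p = 0.0581). That difference was called without bIP library 2 (adjusted p = 0.0319), without bRG library 2 (0.0244) and by DESeq2 (0.0295). ACVR2B in bIP against aRG gave log2FC -0.70 (SE 0.27, edgeR adjusted p = 0.0903), called without bRG library 3 (0.0336) or bIP library 2 (0.0440). An antisense gene of ACVR2B is listed in the gorGor6 table, and the strand setting of the counting was not given, so reads of the pair may be mixed. ACVR1, a type I receptor for BMPs, gave log2FC -0.58 (SE 0.24, edgeR adjusted p = 0.110) in bIP against aRG, called at 0.0473 without bRG library 3. The endothelial receptor ACVRL1 and the activin receptor ACVR1C held 580 and 415 counts in all and were not called by edgeR. DESeq2 called ACVR1C lower in N than in aRG (log2FC -1.84, adjusted p = 0.0402).

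**Figure D3:**
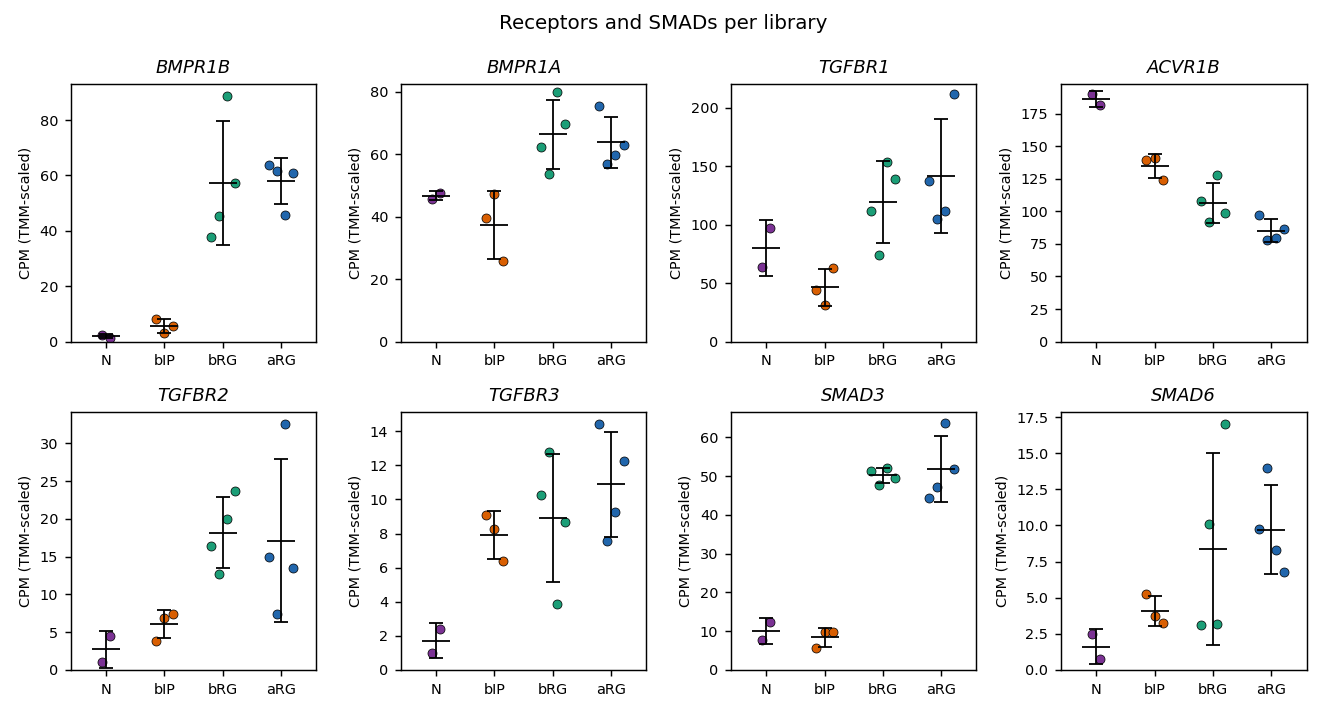
CPM (y axis, TMM-scaled, from 0) of 6 receptors and 2 SMADs in each library (points) of N, bIP, bRG and aRG (x axis), with mean and SD (horizontal mark and bar). BMPR1B and SMAD3 separate N and bIP from both radial glia populations, ACVR1B steps down across N, bIP and aRG, and TGFBR3 is lowest in N.

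Of the 8 SMADs only SMAD3 was called over the 4 populations. SMAD3, which carries TGF-beta and activin signals, measured 7.72 and 12.3 CPM in N, 5.52, 9.76 and 9.89 in bIP, 51.4, 47.7, 52.1 and 49.5 in bRG, and 44.3, 47.2, 63.7 and 51.9 in aRG. Every N and bIP library was well below every radial glia library, with a narrow spread in bRG. The log2 fold change was -2.36 (SE 0.36, edgeR adjusted p = 9.28e-05) in N against aRG, -2.62 (SE 0.31, edgeR adjusted p = 7.10e-06) in bIP against aRG and -2.57 (SE 0.31, edgeR adjusted p = 1.39e-05) in bIP against bRG. bRG and aRG differed by log2FC -0.045 (95% interval -0.55 to 0.45). Its calls held in all 20 alternatives in each of these 3 comparisons.

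SMAD2, which transmits the same signals, measured 161 and 173 CPM in N, 139, 165 and 132 in bIP, 137, 123, 248 and 169.7 in bRG, and 183, 141, 149 and 182 in aRG. The N and bIP libraries overlapped those of bRG and aRG, and N against aRG gave log2FC 0.023 (95% interval -0.52 to 0.57). SMAD4, the common partner, measured 70.8 and 77.6 CPM in N, 85.3, 69.5 and 81.9 in bIP, 77.6, 75.0, 215 and 121 in bRG, and 74.6, 84.9, 97.1 and 120.1 in aRG. N and bIP against aRG gave log2FC -0.34 and -0.26, neither called.

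The SMADs of the BMP branch were not called either. SMAD1 measured 9.56 and 10.5 CPM in N, 12.5, 11.0 and 10.1 in bIP, 12.8, 13.8, 15.1 and 10.6 in bRG, and 7.95, 11.4, 8.23 and 12.9 in aRG. N lay just below bRG, every other pair of populations overlapped, and bIP against aRG gave log2FC 0.14 (95% interval -0.53 to 0.82). SMAD5 measured 87.4 and 109 CPM in N, 153, 153 and 135 in bIP, 159, 104, 510.2 and 199 in bRG, and 185, 138, 168 and 203 in aRG. Both N libraries were below all aRG libraries, the highest value was that of bRG library 3, and without that library N against aRG was called lower (-0.82, adjusted p = 0.0263, against 0.229 with it). SMAD9 measured 103 ± 5.49 CPM in N, 91.6 ± 9.41 in bIP, 94.0 ± 22.2 in bRG and 75.0 ± 16.9 in aRG.

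The inhibitory SMADs are themselves induced by the pathway. SMAD6 measured 2.45 and 0.746 CPM in N, 5.23, 3.71 and 3.24 in bIP, 3.08, 10.1, 3.18 and 17.0 in bRG, and 9.76, 14.0, 8.33 and 6.80 in aRG. Both N libraries lay below all aRG libraries, and N against aRG gave log2FC -2.61 (SE 0.79, edgeR adjusted p = 0.0246). The call ended without aRG library 2 (adjusted p = 0.0548). It also ended for SMAD6 in fits that left out the unnumbered N library and so kept 1 N library. These were its removal alone (-1.97), the replicate block (-1.76) and the term for libraries 1-2 against 3-4 (-2.02). SMAD7 measured 12.0 and 7.46 CPM in N, 6.57, 9.54 and 9.44 in bIP, 7.35, 17.9, 30.3 and 24.4 in bRG, and 12.6, 8.28, 9.48 and 10.5 in aRG. It was highest in 3 bRG libraries, yet bRG library 1 was the lowest of bRG and aRG, and bRG against aRG gave log2FC 0.97 (SE 0.40, edgeR adjusted p = 0.416). In bIP against bRG SMAD7 was not called with all libraries in edgeR. It was called lower in bIP by DESeq2 (log2FC -1.23, adjusted p = 0.0184) and by edgeR without bRG library 1 (-1.50, adjusted p = 0.0139).

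Of the 4 extracellular inhibitors CHRD was called. CHRD encodes chordin, which binds BMPs and keeps them from their receptors, and measured 40.9 and 25.9 CPM in N, 52.6, 56.1 and 41.0 in bIP, 14.0, 16.0, 1.18 and 13.9 in bRG, and 21.1, 22.8, 27.8 and 21.0 in aRG. bIP was highest, bRG lowest, and bIP overlapped neither bRG nor aRG. bIP against bRG gave log2FC 2.14 (SE 0.50, edgeR adjusted p = 0.00597), and 1.77 without bRG library 3 (adjusted p = 0.000170). bIP against aRG gave log2FC 1.10 (SE 0.49, edgeR adjusted p = 0.147), and the same difference was called without bRG library 3 (adjusted p = 0.00262). bRG against aRG gave log2FC -1.04 (SE 0.47, edgeR adjusted p = 0.498), with an unadjusted p of 0.0410 and no overlap. It was -0.66 without bRG library 3.

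FST encodes follistatin, which sequesters activins, and measured 1.84 and 3.55 CPM in N, 16.1, 23.5 and 8.99 in bIP, 20.7, 2.22, 22.6 and 8.85 in bRG, and 18.6, 4.85, 19.7 and 10.2 in aRG. N was lowest in mean, and its libraries overlapped bRG library 2. N differed from aRG by log2FC -2.29 (SE 0.81, edgeR adjusted p = 0.0552) and N against bIP -2.57 (SE 0.84, edgeR adjusted p = 0.470). Without bRG library 2, bRG library 3 or aRG library 2, N against aRG was called (adjusted p = 0.0188, 0.0353 and 0.0324). NOG encodes noggin, a BMP antagonist, and measured 2.57 and 0.373 CPM in N, 3.73, 0.318 and 0.809 in bIP, 12.3, 3.67, 0 and 3.71 in bRG, and 4.16, 2.71, 1.44 and 6.49 in aRG. Its bRG libraries alone, from 0 to 12.3 CPM, spanned the range of all other libraries, and no comparison was called. GREM1, another BMP antagonist, measured 1.50 ± 0.137 CPM in N, 1.86 ± 1.08 in bIP, 3.21 ± 3.24 in bRG and 3.15 ± 1.52 in aRG, on 292 counts in all.

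All 4 ID genes were called over the 4 populations. From high to low, the means of ID1 and of ID3 were ordered aRG, bIP, bRG and N. ID4 was ordered aRG, bRG, bIP and N, and ID2 N, bIP, aRG and bRG. ID1 measured 0.613 and 2.61 CPM in N, 8.66, 18.9 and 6.92 in bIP, 4.27, 1.56, 0.118 and 1.999 in bRG, and 17.0, 21.0, 22.4 and 19.9 in aRG. aRG was high in all 4 libraries and bRG and N low in all of theirs, with bIP between them except bIP library 2, which reached the aRG range. bRG against aRG gave log2FC -3.37 (SE 0.65, edgeR adjusted p = 0.00973), the single member called between the radial glia populations. All 20 alternatives kept that call, with a log2 fold change of -2.98 without bRG library 3 and -3.62 in the gorGor6 table. bIP was above bRG, at log2FC 2.56 (SE 0.67, edgeR adjusted p = 0.0118), and this call ended without bIP library 2 (1.997, adjusted p = 0.0910). Against aRG, N stood at log2FC -3.60 (SE 0.88, edgeR adjusted p = 0.00657), which ended without N library 1 (0.102).

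Choroid plexus, mesenchyme and cycling-cell markers moved with ID1 between the radial glia populations. Summed choroid plexus markers were 5257, 1619, 7821 and 3953 CPM in aRG libraries 1 to 4, while ID1 in these libraries ranged from 17.0 to 22.4 CPM. Of these sums TTR alone held 5049, 1541, 7626 and 3834 CPM. In bIP, where ID1 was higher than in bRG, the same sum was 106 to 279 CPM, against 233 to 1265 in bRG, and the ranges overlapped. Of the 7 choroid plexus markers 1 was called lower in bRG against aRG, and 5 were lower at an unadjusted edgeR p under 0.05. In no population was any of the 7 at 0 in all libraries. Of the 6 cycling-cell markers all 6 were called lower there. Summed mesenchyme markers were 110 to 145 CPM in bRG and 160 to 385 in aRG. Of these 7 markers 1 was called lower in bRG against aRG, and 3 were lower at an unadjusted edgeR p under 0.05. The part of these markers in the ID1 difference was not tested.

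ID3 measured 1.35 and 5.97 CPM in N, 5.67, 15.9 and 7.28 in bIP, 8.72, 7.56, 11.8 and 6.95 in bRG, and 20.8, 17.0, 32.1 and 20.9 in aRG. All aRG libraries lay above all other libraries, and the bRG and bIP ranges overlapped. N against aRG gave log2FC -2.61 (SE 0.62, edgeR adjusted p = 0.00495), which ended without N library 1 (adjusted p = 0.0908). bRG against aRG gave log2FC -1.38 (SE 0.44, edgeR adjusted p = 0.235), with an unadjusted p of 0.00637, and bIP against aRG -1.23 (SE 0.49, edgeR adjusted p = 0.0920). The bIP difference was called without bIP library 2 (0.0399) and by DESeq2 (0.0356).

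ID4 measured 16.1 and 16.0 CPM in N, 80.9, 58.1 and 31.1 in bIP, 289, 277, 385 and 437 in bRG, and 487, 473, 312 and 499 in aRG. The 5 N and bIP libraries were all far below the 8 radial glia libraries. The N to aRG log2 fold change was -4.78 (SE 0.43, edgeR adjusted p = 5.47e-07), bIP against aRG -2.97 (SE 0.32, edgeR adjusted p = 3.24e-06) and bIP against bRG -2.62 (SE 0.32, edgeR adjusted p = 1.68e-05), and these held in all 20 alternatives each. N was also below bIP in every library, at log2FC -1.82 (SE 0.38, edgeR adjusted p = 0.0843). That difference was called without bIP library 3 (adjusted p = 0.0117) or bRG library 3 (0.0362) and by DESeq2 (0.000372).

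ID2, unlike ID4, was higher in N and bIP than in radial glia, at 293 and 668 CPM in N, 124, 156 and 329 in bIP, 26.0, 36.5, 64.0 and 27.2 in bRG, and 36.1, 45.0, 69.4 and 53.8 in aRG. All N and bIP libraries were above all radial glia libraries, and N overlapped bIP only through bIP library 3. N differed from aRG by log2FC 3.23 (SE 0.42, edgeR adjusted p = 2.33e-05), bIP against aRG 1.99 (SE 0.39, edgeR adjusted p = 0.00108) and bIP against bRG 2.40 (SE 0.39, edgeR adjusted p = 0.000291). All 3 calls held in each of the 20 alternatives, and bRG against aRG gave log2FC -0.41 (95% interval -1.12 to 0.29).

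**Figure D4:**
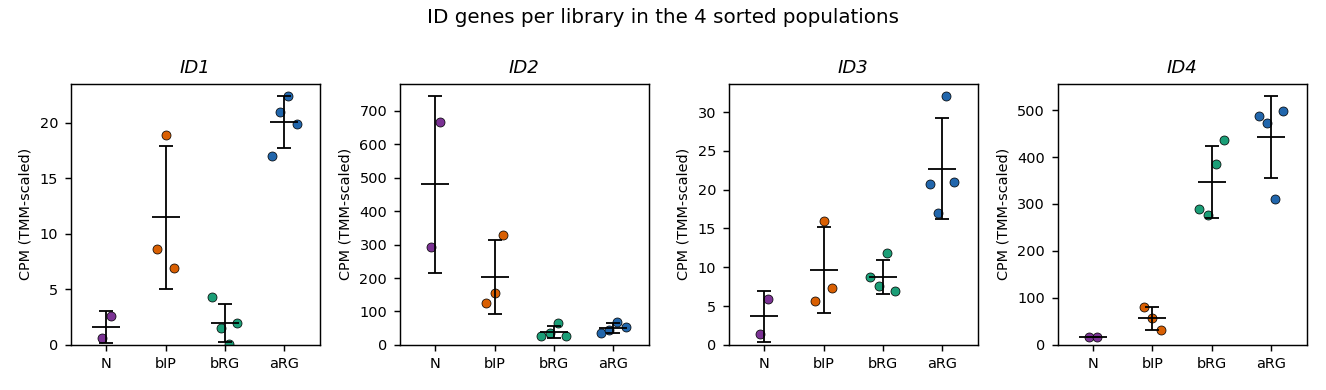
CPM (y axis, TMM-scaled, from 0) of the 4 ID genes in each library (points) of N, bIP, bRG and aRG (x axis), with mean and SD (horizontal mark and bar). ID2 is higher and ID4 lower in all N and bIP libraries than in all radial glia libraries, and ID1 lies at 0.118 to 4.27 CPM in bRG and 17.0 to 22.4 CPM in aRG.

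The wider pathway was read from a list of 71 other genes, namely further ligands, co-receptors, modulators of ligand release, SMAD partners and targets, of which 68 were tested. In N against aRG 16 of them were lower and 5 higher (23.5% and 7.35%), beside 9.37% and 10.4% of all genes. In bIP against aRG 13 were lower and 5 higher (19.1% and 7.35%), beside 9.98% and 8.47%, and in bIP against bRG 11 and 6 (16.2% and 8.82%), beside 8.44% and 8.25%. edgeR called 0 of them in bRG against aRG and in N against bIP, where 2 and 14 had an unadjusted p under 0.05. The median log2 fold change of the 68 in N against aRG was -0.41, beside -0.053 for all genes. Of the genes described next, 10 are those with the smallest p over the 4 populations.

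Genes whose products store or release latent TGF-beta went in both directions. LTBP1, which tethers latent TGF-beta to the matrix, measured 7.74 ± 1.59 CPM in N, 22.1 ± 10.7 in bIP, 88.2 ± 32.9 in bRG and 114 ± 11.8 in aRG. ITGB8, an integrin subunit that activates latent TGF-beta, measured 107 ± 23.6, 128 ± 23.3, 401 ± 72.5 and 515 ± 92.2 CPM in that order. The log2 fold changes in N and bIP against aRG were -3.88 and -2.38 for LTBP1, and -2.27 and -2.003 for ITGB8, with edgeR adjusted p of 8.52e-06 and 9.07e-05 for LTBP1, and 2.57e-05 and 1.48e-05 for ITGB8. FBN2, a fibrillin of the same matrix, measured 4.11 ± 1.99, 11.2 ± 4.85, 52.4 ± 23.9 and 84.8 ± 31.2 CPM in N, bIP, bRG and aRG, with log2 fold changes of -4.38 in N and -2.92 in bIP against aRG (edgeR adjusted p = 2.85e-05 and 0.000119). LTBP4 and FBN1, of the same protein families, were also called lower in both comparisons. THBS1, which can activate latent TGF-beta, was higher, at 79.6 ± 11.0 CPM in N, 61.4 ± 13.2 in bIP, 17.2 ± 8.90 in bRG and 14.6 ± 3.40 in aRG, with log2FC 2.45 (SE 0.41, edgeR adjusted p = 0.000259) in N and 2.08 (SE 0.38, edgeR adjusted p = 0.000609) in bIP against aRG. LTBP2, LTBP3 and ITGAV, a partner of ITGB8, were not called in N or bIP against aRG or in bIP against bRG. These 6 genes were added after their values were seen.

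SMAD co-repressors differed among themselves. TGIF1 and TGIF2, which hold back SMAD-driven transcription, were both lower in N and bIP than in aRG. TGIF1 measured 2.83 ± 1.89 CPM in N, 8.34 ± 3.61 in bIP, 48.0 ± 16.6 in bRG and 63.4 ± 20.8 in aRG, and TGIF2 13.1 ± 0.181, 12.4 ± 3.77, 70.2 ± 26.9 and 77.5 ± 5.12. In N against aRG the log2 fold changes were -4.50 for TGIF1 and -2.56 for TGIF2 (edgeR adjusted p = 1.71e-05 and 0.000165). SKI and SKIL, co-repressors of the same pathway that were added after their values were seen, had means running the other way. SKI measured 22.5 ± 1.25 CPM in N, 21.9 ± 7.65 in bIP, 10.4 ± 0.991 in bRG and 12.0 ± 4.13 in aRG. It was called in bIP against bRG, at log2FC 1.08 (SE 0.36, edgeR adjusted p = 0.0455), but not in N against aRG (edgeR adjusted p = 0.124). SKI held 1758 counts here but 104 in the gorGor6 table, and its values are uncertain for that reason. SKIL measured 69.3 ± 4.98, 47.2 ± 10.1, 39.7 ± 26.2 and 30.9 ± 3.27 CPM in the same order and was not called. N against aRG for SKIL gave log2FC 1.17 (SE 0.41, edgeR adjusted p = 0.0532). ZEB1 and ZEB2 are related SMAD-binding repressors with opposite changes here. ZEB1 measured 62.6 and 48.2 CPM in N, 76.3, 94.4 and 62.4 in bIP, 383, 274, 520.1 and 276 in bRG, and 408, 343, 223 and 279 in aRG. ZEB2 measured 519 and 618 CPM in N, 252, 274 and 370.3 in bIP, 132, 125, 139.6 and 84.4 in bRG, and 117, 144, 85.3 and 96.2 in aRG. ZEB1 was lower and ZEB2 higher in all N and bIP libraries than in all radial glia libraries. In N against aRG the log2 fold changes were -2.50 (SE 0.36, edgeR adjusted p = 5.40e-05) for ZEB1 and 2.36 (SE 0.27, edgeR adjusted p = 5.46e-06) for ZEB2.

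NEO1 was higher, and RGMA and FSTL1 were lower, in N than in aRG. NEO1, neogenin, a receptor for repulsive guidance molecules, measured 456 and 488 CPM in N, 274, 218 and 326 in bIP, 76.4, 69.3, 96.3 and 73.0 in bRG, and 95.8, 91.5, 79.8 and 67.9 in aRG. N and bIP stood above both radial glia populations in every library. N differed from aRG by log2FC 2.50 (SE 0.24, edgeR adjusted p = 1.03e-06) and bIP by 1.70 (SE 0.22, edgeR adjusted p = 2.04e-05). RGMA, a repulsive guidance molecule and BMP co-receptor, measured 30.9 ± 2.19 CPM in N, 56.3 ± 12.5 in bIP, 120.3 ± 16.2 in bRG and 151 ± 27.1 in aRG, at log2FC -2.29 (SE 0.29, edgeR adjusted p = 1.80e-05) in N against aRG. FSTL1, a follistatin-like secreted protein, measured 57.0 ± 12.97, 41.0 ± 18.2, 339 ± 140.3 and 496 ± 164 CPM in the same order, at log2FC -3.12 (SE 0.49, edgeR adjusted p = 0.000127) in N against aRG.

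**Figure D5:**
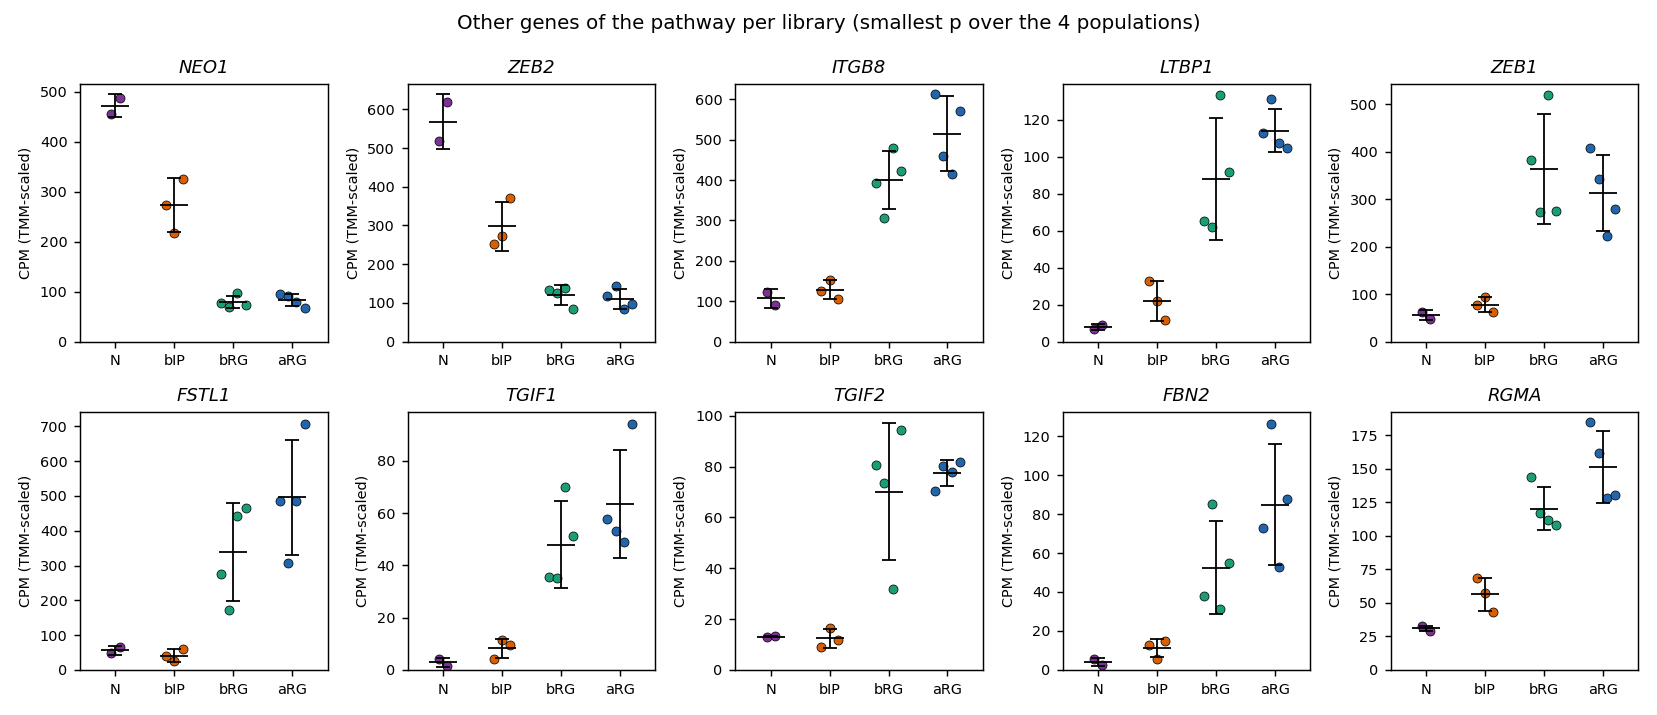
CPM (y axis, TMM-scaled, from 0) of the 10 other pathway genes with the smallest p in each library (points) of N, bIP, bRG and aRG (x axis), with mean and SD (horizontal mark and bar). NEO1 and ZEB2 are higher, and the other 8 lower, in all N and bIP libraries than in all radial glia libraries.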

How the data were processed

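The authors deposited raw counts per gene in a table named for hg38, used here, and in one named for gorGor6, used as an alternative. Per the submitters' processing notes STAR and hg38 were used; the version, annotation and strand setting were not given. Left out was a nameless gorGor6 row, 0.00351% to 0.00768% of each library. A neuron column's number matches no label, so it is called the unnumbered N library. Reads without molecular identifiers are not independent molecules, so the limit of 3 counts set on a 0 covers counting error only.

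In R 4.3.3, edgeR 4.0.16 fitted all 13 libraries with 1 mean per population, on genes kept by filterByExpr (minimum count 10), with TMM scaling and quasi-likelihood tests. P-values were Benjamini-Hochberg adjusted over the 16804 tested genes, with a threshold of 0.05, and intervals are the log2 fold change ± 1.96 SE. CPM are TMM-scaled and were not compared between genes. The script was tested on simulated data. Members called over the 4 populations, and the best known of each role, are named with values, as are the 10 other pathway genes with the smallest p. The members and lists were chosen with earlier results of these data known. The alternatives were DESeq2 1.42.0, its size factors, no filter, the gorGor6 table, a replicate block, a term for libraries 1-2 against 3-4, only the populations compared, and each library left out, 20 in all for each comparison. The replicate block and the term for libraries 1-2 against 3-4 also left out the unnumbered N library, so N had 1 library there.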

Additional observations from a re-analysis of the deposited data

Results flagged for a closer look

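In 4 of 106 groups of 4 libraries (3.77%) 1 library lay far from the other 3 by Dixon's 95% value, which chance passes in about 5% of groups. BMPR1B measured 45.6 CPM in aRG library 3 and 60.9 to 63.6 CPM in the other aRG libraries. ID4 measured 312 CPM in aRG library 3, against 473 to 499 CPM in the others. CHRD measured 1.18 CPM in bRG library 3, against 13.9 to 16.0 CPM in the others, and GDF9 27.2 CPM in bRG library 3, against 23.7 to 24.3 CPM.

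The gorGor6 table lists 5 genes with names close to those of members that the comparisons did not use. ACVR2B-AS1, antisense to ACVR2B, held 1173 counts over 13 libraries. BMPR1B-DT, a divergent transcript of BMPR1B, held 256 counts in 12 libraries, of which 15 were in N, 59 in bIP, 92 in bRG and 90 in aRG. BMPR1AP1, a BMPR1A pseudogene, held 100 counts in 11 libraries. BMP15, an ovarian ligand, held 80 counts in 12 libraries, and BMPR1AP2 held 0.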

How the results depend on the processing

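Of 32 calls of a member in a comparison of 2 populations, 17 held under every alternative and 0 reversed. In bIP against aRG the 2 higher became 1 in the gorGor6 table and 4 with only the populations compared, which also gave 10 lower in place of 6. They numbered 1 to 5 with a library left out. In bIP against bRG DESeq2 called 5 higher in place of 3, and 12 lower in place of 6. In N against bIP DESeq2 called 4 lower in place of 0, and 0 to 1 were lower with a library left out. With the term for libraries 1-2 against 3-4, which also left N with 1 library, fewer members were higher in N against aRG than the 4 called. With a library left out they numbered 2 to 5 higher and 4 to 14 lower. The cause was not tested.

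With the replicate block, over the 12 numbered libraries, 13 members were called over the populations, and in N against aRG 2 were higher and 7 lower, with N represented by 1 library assumed to vary like the other groups. Deviations of same-numbered libraries correlated at -0.0127 to 0.387 in bRG against aRG and not every library correlated best with its own number, so the numbers were not read as pairing. Other size factors shifted the median of all genes by at most 0.053 on the log2 scale. GREM1 held 56.2% as many counts in the gorGor6 table as in the hg38 table. Library totals went the other way, at 11835004 to 26173260 counts in the gorGor6 table and 5464721 to 12524938 in the hg38 table. N has 2 libraries, and 6 tested members held under 100 counts in all.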

Other observations

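ATOH8, BAMBI, MSX1, MSX2 and HEY1, further targets of BMP signalling, were looked at after their values were seen. ATOH8, a transcription factor induced by BMPs, measured 2.33 and 1.87 CPM in N, 8.36, 6.36 and 5.12 in bIP, 18.1, 25.9, 14.9 and 15.6 in bRG, and 22.8, 26.0, 16.0 and 13.9 in aRG. Both N libraries were below every other library, and the bIP libraries below all radial glia libraries. The log2 fold change was -3.22 (SE 0.50, edgeR adjusted p = 0.000113) in N against aRG and -1.57 (SE 0.38, edgeR adjusted p = 0.00619) in bIP against aRG. BAMBI, a decoy receptor induced by the same signal, measured 0.735 and 2.15 CPM in N, 3.43, 1.91 and 2.43 in bIP, 11.1, 10.8, 5.89 and 10.2 in bRG, and 8.31, 5.99, 9.10 and 8.25 in aRG. Every N and bIP library was below every radial glia library. It gave log2FC -2.43 (SE 0.61, edgeR adjusted p = 0.00763) in N against aRG and -1.62 (SE 0.49, edgeR adjusted p = 0.0276) in bIP against aRG. Unlike ID1, neither was called in bRG against aRG, where ATOH8 gave log2FC -0.075 (95% interval -0.73 to 0.57) and BAMBI 0.26 (95% interval -0.58 to 1.10). That contrast with ID1 was not tested.

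MSX2, a BMP target and cortical hem marker, measured 0 and 0.746 CPM in N, 2.09, 3.71 and 4.49 in bIP, 9.23, 7.34, 0.236 and 9.99 in bRG, and 14.5, 5.99, 7.76 and 3.20 in aRG. The N range met only bRG library 3. N against aRG gave log2FC -4.25 (SE 1.24, edgeR adjusted p = 0.0209). MSX1 and HEY1 had their lowest means in bIP and were not called in N or bIP against aRG. MSX1 measured 5.90 ± 0.891 CPM in N, 2.82 ± 0.534 in bIP, 7.73 ± 7.81 in bRG and 11.5 ± 8.67 in aRG (SD), and HEY1 56.2 ± 3.38, 37.1 ± 12.3, 83.1 ± 50.3 and 72.8 ± 33.5 CPM. The 7 cortical hem markers together summed to 31.3 to 37.8 CPM in N, 77.0 to 110 in bIP, 53.9 to 211 in bRG and 38.0 to 154 in aRG, and 4 of the 7 were called lower in N against aRG.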
